A study of Mus musculus with 14 samples.

Results

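The genes described here make cholesterol or control its making: the enzymes Hmgcs1, Idi1, Fdps, Fdft1, Sqle and Lss, and the regulators Insig1 and Srebf2. They were listed by symbol, and each was read from probes annotated to exactly 1 gene, taking the probe that was brightest on average. Of the 8 listed genes 7 had such a probe, 1 each, among 22180 genes with such a probe. The only probe for Idi1, which interconverts the pathway's isoprenoid building blocks, also named a predicted gene, so no Idi1 value is given. The list was chosen from measured values on these same arrays, and which comparison guided the choice is not recorded. Differences between groups are therefore given as descriptions, and nothing is read from how many members differ. The list's working name included sterol uptake, but none of its members is an uptake receptor.

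Cells build cholesterol from acetyl-CoA through mevalonate, isoprenoid units and squalene. When sterols are scarce in the endoplasmic reticulum, the transcription factor SREBP-2, encoded by Srebf2, is carried by Scap to the Golgi, cut free and sent to the nucleus, where it switches on the enzymes and its own gene. When sterols are plentiful, Insig1 holds the complex back. In blood-forming tissue, proliferating and activated lymphocytes and myeloid cells are known to raise this pathway to supply new membrane.

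The samples were bone marrow cells of female NCR-NU mice, a nude strain without a functional thymus, sorted for the surface marker Sca1 and against Kit. Hosts were old mice with a primary tumor (3 mice), old cancer-free mice (5), young mice with a primary tumor (3) and young cancer-free mice (3). Cancer-free hosts carried a Matrigel control, and tumors were matched in size between ages, per the series' design text. The labels give neither the ages in weeks nor the tumor's origin, and each mouse had 1 array.

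Values are log2 intensities normalised by robust multi-array average (RMA), and a gene counted as measurable when it exceeded the median of the whole table, 3.88, on at least 3 arrays. Array medians lay between 3.81 and 3.93, and each array's mean correlation with the others between 0.899 and 0.942. The pan-leukocyte gene Ptprc was bright on every array, at 10.53 to 11.36. Kit, the marker sorted against, was above the floor on every array, at 5.25 to 7.03, with 5.69 to 6.16 in old tumor-bearing, 5.25 to 5.96 in old cancer-free, 6.10 to 7.03 in young tumor-bearing and 5.25 to 6.29 in young cancer-free mice. The Sca1 gene was not analysed here. Marker lists of mesenchymal stromal cells averaged 3.25 to 3.61 on every array, below the floor, and 3 of their 7 genes were below it on all arrays. In these sorted pools, fewer cells of a type and less RNA per cell cannot be told apart.

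Promoter sequence is shown for Hmgcs1 because it was the only member with a promoter in the reference table that held the sterol regulatory element core, the letters that SREBP proteins are known to bind. Promoters were found in the RefSeq table, on build GRCm38.p6, for 5 of the 8 genes: Hmgcs1, Lss, Idi1, Insig1 and Srebf2. The core was searched as TCACNCCAC on both strands of each 300 bases. Only exact matches were counted, so a site that differs by a letter would be missed in the other promoters. The Hmgcs1 window is chr13:119690101-119690400, plus strand, 5′ to 3′, and capitals mark the core, whose first base lies at position -137 from the annotated start.

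Hmgcs1: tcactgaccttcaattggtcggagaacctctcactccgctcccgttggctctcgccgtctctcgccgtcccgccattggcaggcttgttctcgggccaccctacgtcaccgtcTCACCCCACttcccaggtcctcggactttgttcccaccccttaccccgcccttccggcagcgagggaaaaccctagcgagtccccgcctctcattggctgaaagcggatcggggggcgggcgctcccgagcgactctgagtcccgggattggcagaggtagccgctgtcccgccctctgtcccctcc

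The core was present in 1.24% of the 32851 promoters in the table, 408 in number. The Hmgcs1 window also held 4 copies of CCAAT, the box of the factor NF-Y, all on the reverse strand and lying at -237, -176, -45 and 10. Its 3 copies of GGGCGG, the GC box of Sp1-type factors, began at -92, -24 and 32. CCAAT occurred in 37.4% and GGGCGG in 35.7% of all promoters in the table. The Srebf2 window on chromosome 15 held 1 CCAAT and 5 GGGCGG. Insig1 on chromosome 5 held 1 CCAAT and 3 GGGCGG, Lss on chromosome 10 held 1 and 2, and Idi1 on chromosome 13 held 2 and 1. A match is a description of letters, and the arrays did not measure binding.

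Hmgcs1, which makes HMG-CoA at the head of the mevalonate route, had the smallest p of the 7 members for tumor in old mice, for tumor in young mice and for tumor averaged over ages. Its log2 values were 5.11, 4.23 and 4.58 in old tumor-bearing mice, against 6.49, 6.26, 5.76, 5.73 and 6.49 in old cancer-free mice. All 3 old tumor-bearing arrays lay below all 5 old cancer-free arrays. The limma difference, tumor-bearing minus cancer-free, was -1.51 ± 0.30 (SE; 95% interval -2.15 to -0.87), 2.845-fold lower. It stood at rank 13 of 13805 genes by p, and its adjusted p of 0.19 did not pass 0.05.

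In young mice Hmgcs1 was 6.26, 5.47 and 5.37 with a tumor, against 6.10, 6.04 and 6.93 in cancer-free hosts. These groups overlapped, with 1 tumor-bearing array inside the cancer-free range. The difference in young mice was -0.65 ± 0.33 (limma adjusted p = 0.887), and the tumor difference in old minus that in young mice was -0.86 ± 0.45 (limma adjusted p = 0.976). With 1 array left out, the difference in young mice ranged from -0.93 without young tumor-bearing replicate 1 to -0.36 without young cancer-free replicate 3, the array at 6.93. A larger tumor difference in old hosts was thus not shown by the test of that difference. Averaged over ages, the tumor difference of Hmgcs1 was -1.08 ± 0.22, at rank 9 of 13805 genes (limma adjusted p = 0.268). By age, Hmgcs1 in old minus young hosts was -1.07 ± 0.33 among tumor-bearing mice, without overlap (limma adjusted p = 0.315). That age difference was -0.76 ± 0.39 without old tumor-bearing replicate 3 and young tumor-bearing replicate 1. Among cancer-free mice it was -0.21 ± 0.30, and the groups overlapped (limma adjusted p = 0.89).

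**Figure D1:**
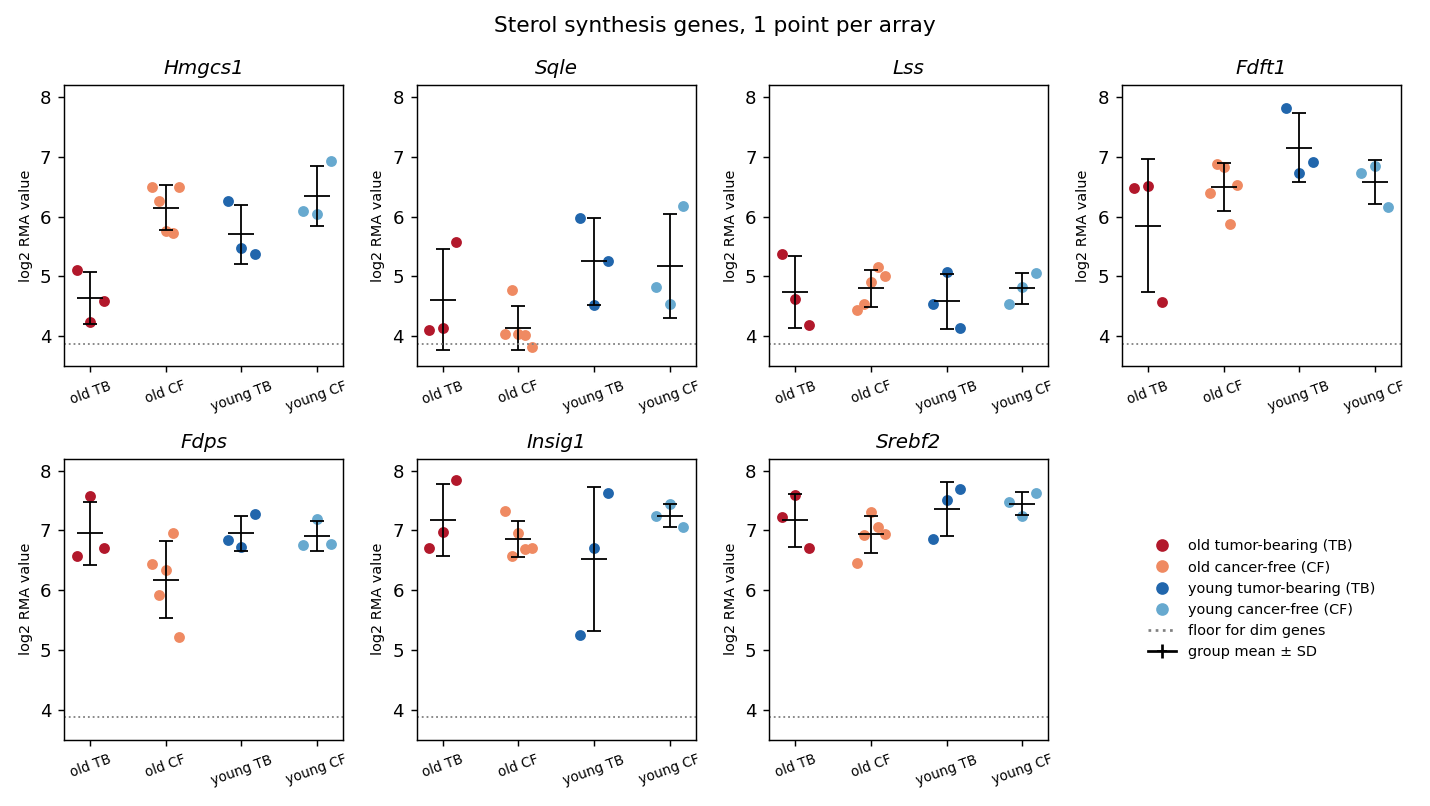
Log2 RMA value (vertical axis) of the 7 measured sterol genes on each of the 14 arrays, by group (TB, tumor-bearing; CF, cancer-free), with group mean and SD as black bars and the floor for dim genes, 3.88, as a dotted line. Hmgcs1 is the gene whose old tumor-bearing arrays, 4.23 to 5.11, lie below those of every other group.

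Some marker levels also separated tumor-bearing from cancer-free mice, while Hmgcs1 did so in old mice only. The list mean of 8 natural killer cell markers, all 8 measured, spanned 7.15 to 7.68 in old tumor-bearing and 7.75 to 8.14 in old cancer-free mice, and 7.51 to 8.03 in young tumor-bearing and 8.05 to 8.48 in young cancer-free mice. In both ages the tumor-bearing arrays lay below the cancer-free ones. Ptprc was likewise lower in old tumor-bearing than in old cancer-free mice, by -0.42 ± 0.17, without overlap (limma adjusted p = 0.467). The list mean of 4 measured megakaryocyte and platelet markers was 3.85 to 4.08 in old tumor-bearing and 3.51 to 3.74 in old cancer-free mice, and 3.61 to 3.64 in young tumor-bearing mice, close to the floor throughout. The megakaryocyte and platelet list thus ran opposite to Hmgcs1 in old mice. In young mice the mature B cell list was lower with a tumor, without overlap. The stem and progenitor cell and mesenchymal stromal cell lists were higher there, also without overlap. In old mice these last lists all overlapped. The part of these markers in the Hmgcs1 differences was not tested.

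Further down the route, Fdps, which condenses isoprenoid units to farnesyl diphosphate, was 6.58, 7.57 and 6.71 in old tumor-bearing mice, against 6.44, 5.92, 6.34, 6.96 and 5.22 in old cancer-free mice. It ran opposite to Hmgcs1 between these groups, but with overlap. The difference was 0.78 ± 0.34 (unadjusted p = 0.0369 and adjusted p = 0.485 in limma), and it was 0.47 without old tumor-bearing replicate 2, the array at 7.57. In young mice Fdps was 6.84, 6.73 and 7.27 with a tumor, against 6.76, 7.20 and 6.78 in cancer-free hosts, a difference of 0.04 ± 0.38. The low group was old cancer-free mice, which averaged 6.18 ± 0.65, against 6.91 ± 0.25 in young cancer-free mice (SD, n = 5 and 3). The gap by age was -0.74 ± 0.34 (limma adjusted p = 0.65), and it was -0.50 without old cancer-free replicate 5, the array at 5.22.

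Fdft1, squalene synthase, was 6.47, 6.51 and 4.57 in old tumor-bearing mice, against 7.82, 6.73 and 6.92 in young tumor-bearing mice. The groups did not overlap. The difference, old minus young, was -1.30 ± 0.46 (limma adjusted p = 0.37). It was -0.66 without old tumor-bearing replicate 3, the array at 4.57, and -0.97 without young tumor-bearing replicate 1, the array at 7.82. Without both arrays it was -0.33 ± 0.33. Cancer-free mice showed no such separation, with 6.39, 6.87, 6.83, 5.88 and 6.52 in old against 6.73, 6.84 and 6.16 in young hosts, a difference of -0.08 ± 0.41. Between tumor states Fdft1 differed by -0.65 ± 0.41 in old mice, a value that was -0.01 without old tumor-bearing replicate 3. In young mice it differed by 0.58 ± 0.46, and by 0.24 without young tumor-bearing replicate 1. Both tumor comparisons overlapped.

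Sqle, squalene epoxidase, a rate-limiting oxygen-dependent step, lay near the floor in old cancer-free mice, with 1 array below it. Its values there were 4.04, 4.77, 4.03, 4.02 and 3.82, against 4.83, 4.54 and 6.17 in young cancer-free mice. The groups overlapped through old replicate 2. The age difference in cancer-free mice was -1.04 ± 0.44 (unadjusted p = 0.0312 and adjusted p = 0.637 in limma), and it was -0.55 without young cancer-free replicate 3, the array at 6.17. In tumor-bearing mice Sqle was 4.11, 4.13 and 5.58 in old against 5.98, 4.52 and 5.26 in young hosts, a difference of -0.64 ± 0.49. Leaving out 1 array moved this to between -1.13 and -0.28. By tumor state it differed by 0.47 ± 0.44 in old and by 0.07 ± 0.49 in young mice, and both turned sign with 1 array left out. The old difference was -0.02 without old tumor-bearing replicate 3, the array at 5.58, and the young one ranged from -0.30 without young tumor-bearing replicate 1 to 0.56 without young cancer-free replicate 3.

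Lss, lanosterol synthase, which closes the sterol rings, averaged 4.74 ± 0.60 in old tumor-bearing, 4.80 ± 0.31 in old cancer-free, 4.58 ± 0.46 in young tumor-bearing and 4.80 ± 0.26 in young cancer-free mice (SD). Its array values ran from 4.14 to 5.38 and the groups overlapped in each comparison. Its 4 pairwise differences lay between -0.22 ± 0.32 for tumor in young mice and 0.15 ± 0.32 for age in tumor-bearing mice. For tumor in old mice the 95% interval was -0.67 to 0.54, so differences within that range are not excluded.

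Srebf2 was 7.23, 7.59 and 6.71 in old tumor-bearing, 6.45, 6.92, 7.31, 7.06 and 6.94 in old cancer-free, 6.85, 7.51 and 7.70 in young tumor-bearing and 7.48, 7.25 and 7.62 in young cancer-free mice. All its groups overlapped. Old cancer-free mice averaged the lowest, 6.94 ± 0.31, against 7.45 ± 0.19 in young cancer-free mice (SD, n = 5 and 3), and the limma difference was -0.51 ± 0.25 (adjusted p = 0.657). Between tumor states it differed by 0.24 ± 0.25 in old and by -0.09 ± 0.28 in young mice.

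Insig1, itself a target of SREBP-2 as well as its brake, was 6.70, 6.98 and 7.85 in old tumor-bearing mice, against 7.32, 6.58, 6.95, 6.69 and 6.71 in old cancer-free mice, a difference of 0.33 ± 0.41 that was -0.01 without old tumor-bearing replicate 3, the array at 7.85. In young mice it was 5.25, 6.70 and 7.63 with a tumor, against 7.25, 7.45 and 7.06 without one. The tumor-bearing arrays spread on both sides of the cancer-free ones. The difference in young mice, -0.73 ± 0.46, rested on the array at 5.25, young tumor-bearing replicate 1, and was -0.09 without it. That array and old tumor-bearing replicate 3 correlated least with the rest of the series. Without both, the age difference of Insig1 in tumor-bearing mice was -0.32 ± 0.32, against 0.65 ± 0.46 over all arrays.

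**Figure D2:**
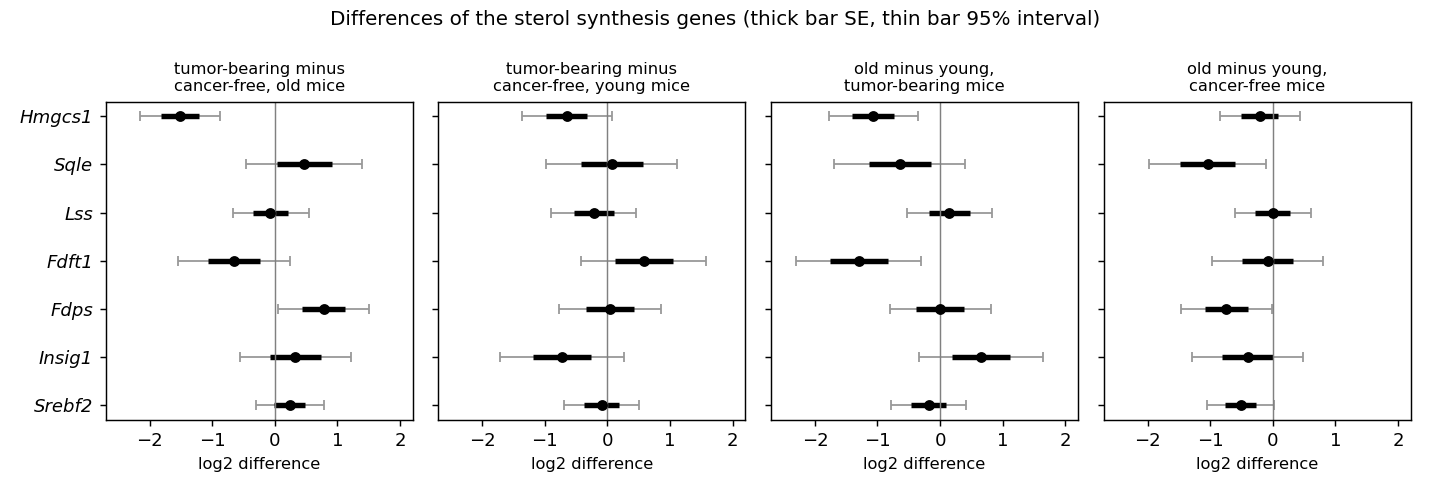
Limma log2 difference (horizontal axis) of each measured member in the 4 pairwise comparisons, with SE as thick bars and 95% intervals as thin bars. For Hmgcs1 the difference in old mice, tumor-bearing minus cancer-free, is -1.51. The members lie on both sides of 0 in every panel but the last. There 6 of 7 are below 0, beside 55.5% of all genes, and Lss is at 0.

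Over all 7 members, none passed an adjusted p of 0.05 in any of the 7 comparisons. Among all 13805 genes tested the share past it was 0% in the comparisons of tumor in old mice, tumor in young mice, age in tumor-bearing mice, age in cancer-free mice, the difference of tumor differences and tumor averaged over ages. It was 0.0869%, 12 genes, for age averaged over tumor states. At an unadjusted p below 0.05, tumor in old mice held 2 members, Fdps higher and Hmgcs1 lower, beside 9.76% of all genes. Tumor in young mice held 0 members, beside 5.40% of all genes. Age in tumor-bearing mice held Hmgcs1 and Fdft1, both lower in old hosts, beside 10.1%, and age in cancer-free mice held Sqle and Fdps, both lower in old hosts, beside 7.66%. For the difference of tumor differences there were 0 members, beside 4.42% of all genes. Averaged over ages, tumor held Hmgcs1 alone, beside 10.2%, and averaged over tumor states, age held Hmgcs1, Sqle and Fdft1, all lower in old mice, beside 13.4%.

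Groups did not overlap for Hmgcs1 between tumor states in old mice, where 6.15% of all genes did not overlap either. Between tumor states in young mice there were 0 such members, beside 12.9% of all genes. Hmgcs1 and Fdft1 did not overlap by age in tumor-bearing mice, beside 13.0% of all genes, and 0 members did so by age in cancer-free mice, beside 7.30%. With both ages or both tumor states pooled there were 0 such members, beside 0.268% of all genes for tumor and 0.529% for age. Comparisons that use one group in common share its arrays, so their values are not independent of each other.

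The median difference of the members was 0.24 for tumor in old mice, against 0.01 over all genes tested, and -0.09 for tumor in young mice, against -0.02. For age it was -0.18 in tumor-bearing mice, against 0.00 over all genes, and -0.40 in cancer-free mice, against -0.04. Averaged over tumor states the members' median for age was -0.37, against -0.01 over all genes. There 5 of 7 members were lower in old mice, beside 52% of all genes. The 18 measured cell cycle genes of a list of 19 were also lower in old mice, all 18 of them in both tumor states. Their list mean spanned 5.37 to 6.54 in old and 6.83 to 7.29 in young tumor-bearing mice, and 5.54 to 6.69 in old and 6.95 to 7.28 in young cancer-free mice. The list mean of 7 measured monocyte and macrophage markers spanned 4.93 to 5.48 in old and 5.64 to 6.16 in young tumor-bearing mice. That of 9 plasmacytoid dendritic cell markers spanned 6.69 to 7.49 in old and 8.05 to 8.91 in young tumor-bearing mice. The B cell progenitor list, with 2 of 7 measured genes below the floor on all arrays, spanned 4.01 to 4.35 in old and 4.44 to 4.92 in young tumor-bearing mice. In the same mice the 9 measured T cell markers ran the other way, at 8.25 to 8.60 in old and 6.85 to 7.74 in young hosts. Among cancer-free mice, the lists of the cell types just named all overlapped between old and young. The monocyte and macrophage list spanned 4.81 to 5.81 and 5.63 to 6.28, and the plasmacytoid dendritic cell list 6.35 to 8.04 and 7.73 to 8.81. The B cell progenitor list spanned 4.01 to 4.61 and 4.35 to 4.81, and the T cell list 7.56 to 8.54 and 7.51 to 8.51. The part of these markers in the members' age differences was not tested.

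The members varied widely among arrays of 1 group. The pooled within-group SD was 0.67 for Sqle, 0.64 for Fdft1, 0.63 for Insig1, 0.51 for Fdps, 0.44 for Hmgcs1, 0.41 for Lss and 0.35 for Srebf2, and the median gene tested had 0.34. Sqle, Fdft1 and Insig1 were above the 90th percentile of all genes in this spread, at percentiles 92.2, 90.3 and 90.1, while Srebf2 stood at 52.5. From array to array the members were mostly weakly correlated. Across the 14 arrays, 12 of 21 pairs of members correlated positively and 9 negatively, with a median Pearson r of 0.07. The extremes were -0.62 for Fdft1 with Insig1 and 0.48 for Fdps with Srebf2, and these arrays share groups. After subtracting group means 9 of 21 pairs were positive and the median r was -0.13.

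**Figure D3:**
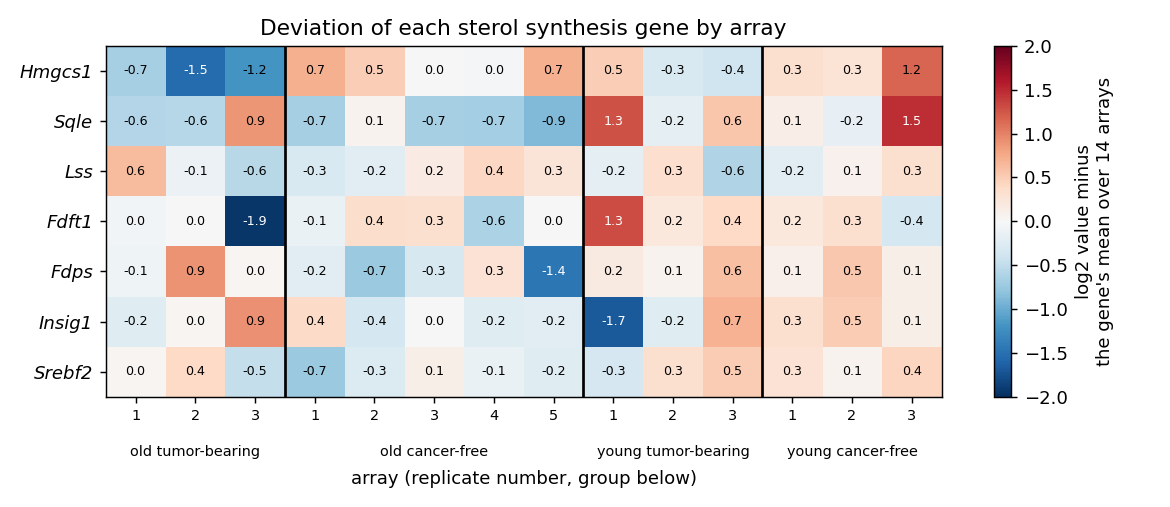
Log2 value minus the gene's mean over the 14 arrays (colour scale and numbers in cells) for each measured member (rows) on each array (columns, by group). The columns hold mixed signs, and the lowest cells are Fdft1 in old tumor-bearing replicate 3, with a value of 4.57, and Insig1 in young tumor-bearing replicate 1, with a value of 5.25.

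The mean of the members, each standardised over the arrays, was most like that of Clip3 (Pearson r = 0.90, Spearman rho = 0.89, n = 14 arrays), followed by Cggbp1 with r = 0.87. Next came Ppwd1, Vhl, Mrpl51 and Spdl1, each with r = 0.85, then Ebp and Gpr141, each with r = 0.84. Of these 8, Ebp is an enzyme of cholesterol synthesis, the sterol isomerase. After subtracting group means its r was 0.78, and the others ranged from 0.66 for Vhl to 0.76 for Clip3, Ppwd1 and Spdl1. These are descriptions over 14 arrays in 4 groups, picked from all genes tested. Single members correlated with the mean of the other members at between -0.35 for Insig1 and 0.52 for Srebf2.

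The rest of the pathway was described from lists of 83 other genes, of which 71 had a usable probe and 66 were bright enough to test. None of the 66 passed an adjusted p of 0.05 in any comparison, and the smallest adjusted p was 0.148. At an unadjusted p below 0.05, tumor in old mice had 0 higher and 6 lower, and tumor in young mice had 1 higher and 0 lower. Age in tumor-bearing mice had 3 higher and 7 lower, and age in cancer-free mice had 1 higher and 8 lower. Age averaged over tumor states had 2 higher and 15 lower. The 1 higher gene for tumor in young mice was Mmab. Mmab was also among the lower genes for age in tumor-bearing mice and for averaged age. It passed the filter mainly through young tumor-bearing mice, so nothing is read from its part in these counts. Over all 13805 genes tested, lower genes also outnumbered higher ones at this p. There were 580 higher and 768 lower for tumor in old mice, and 290 and 455 in young mice. Age gave 518 higher and 876 lower in tumor-bearing mice, 343 and 714 in cancer-free mice, and 613 and 1238 averaged over tumor states. Nothing is read from the direction of the pathway counts.

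Among the 14 other tested enzymes of cholesterol synthesis, 13 had a negative tumor difference in young mice, with a median of -0.23, and 9 of 14 a negative one in old mice, with a median of -0.16. Over all genes tested 52.8% were negative in young and 48.7% in old mice. None of these reached an unadjusted p of 0.05. Cyp51, which removes a methyl group from lanosterol, averaged 4.93 ± 0.55 in old tumor-bearing, 4.45 ± 0.63 in old cancer-free, 4.17 ± 0.87 in young tumor-bearing and 4.92 ± 0.50 in young cancer-free mice (SD). Its tumor differences were 0.48 ± 0.42 in old and -0.75 ± 0.47 in young mice. The first was 0.18 without old tumor-bearing replicate 2, and the second was -0.26 without young tumor-bearing replicate 1, where Cyp51 was 3.19, below the floor. Erg28, a scaffold of the sterol demethylation complex, averaged 8.11 ± 0.58 in young tumor-bearing and 8.85 ± 0.13 in young cancer-free mice, without overlap (difference -0.73 ± 0.35, limma adjusted p = 0.886), and the difference was -0.45 without young tumor-bearing replicate 1.

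Of 12 genes of sterol sensing and SREBP control, 8 had a negative tumor difference in young mice, beside 52.8% of all genes. For tumor in old mice 5 did, beside 48.7%, and for age in tumor-bearing mice 8 did, beside 49.5%. The highest count was for age in cancer-free mice, 11 negative with a median of -0.27, beside 55.5% of all genes. There 1 of the 12 reached an unadjusted p of 0.05 in limma. That gene was Marchf6, a ubiquitin ligase that degrades squalene epoxidase. It was 7.01 to 7.16 in old tumor-bearing and 6.74 to 7.10 in old cancer-free mice, against 7.25 to 7.67 in young tumor-bearing and 7.25 to 7.70 in young cancer-free mice. All 8 old arrays lay below all 6 young arrays, a pattern that 0.529% of all genes showed in one direction or the other, and the averaged age difference was -0.42 ± 0.12 (limma adjusted p = 0.169). Mbtps2, a protease that releases SREBP, was lower with a tumor in young mice without overlap, by -0.73 ± 0.35 (limma adjusted p = 0.886), and by -0.55 ± 0.31 in old mice with overlap, or by -0.28 without old cancer-free replicate 2. Scap, the escort of SREBP, differed by -0.09 ± 0.21 for tumor in old mice and by -0.36 ± 0.21 for age in cancer-free mice. Insig2 differed by 0.29 ± 0.20 and -0.32 ± 0.20 in the same comparisons, and Srebf1 by 0.11 ± 0.24 and -0.21 ± 0.24.

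Of 13 tested genes of sterol uptake and intracellular transport, 8 had a negative tumor difference in young mice, beside 52.8% of all genes. For tumor in old mice 7 did, beside 48.7%, and for age in cancer-free mice 10 did, beside 55.5%. The highest count was for age in tumor-bearing mice, 12 negative with a median of -0.20, beside 49.5% of all genes. The exception was Mylip, a ubiquitin ligase induced by sterol-activated LXR receptors. Mylip was 7.37, 7.91 and 7.89 in old tumor-bearing mice, against 7.05, 7.24 and 6.78 in young tumor-bearing mice. The groups did not overlap, the difference was 0.70 ± 0.24, and the averaged age difference was 0.58 ± 0.16 (limma adjusted p = 0.157). Lipa, the lysosomal acid lipase that frees cholesterol from lipoprotein, averaged 6.14 ± 0.32 in old cancer-free and 6.94 ± 0.35 in young cancer-free mice. The difference was -0.80 ± 0.29 (limma adjusted p = 0.586), without overlap, though the highest old value was 6.56 and the lowest young value 6.59. In tumor-bearing mice the age difference of Lipa was -0.11 ± 0.33, with overlap. Gramd1b, a carrier of plasma membrane cholesterol, differed by -0.76 ± 0.28 for tumor in old mice (limma adjusted p = 0.429). Gramd1a, a related carrier, differed by -0.51 ± 0.20 there, and by 0.48 ± 0.20 for age in cancer-free mice (limma adjusted p = 0.636). For age in tumor-bearing mice Gramd1a differed by -0.12 ± 0.22.

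On the efflux side, 7 genes were tested. The exporters Abca1 and Abcg1, which respond to sterol-activated LXR receptors, had tumor differences in old mice of -0.07 ± 0.29 and -0.03 ± 0.16. In young mice these were -0.10 ± 0.32 and 0.00 ± 0.17. Cyp27a1, a mitochondrial sterol hydroxylase, averaged 3.87 ± 0.16 in old tumor-bearing and 4.76 ± 0.53 in old cancer-free mice, without overlap. The difference was -0.89 ± 0.30 (limma adjusted p = 0.412), and the old tumor-bearing mean lay at the floor. Old cancer-free mice were the high group, as young mice averaged 4.07 ± 0.55 with a tumor and 4.14 ± 0.33 without. The tumor difference of Cyp27a1 in young mice was -0.08 ± 0.34, and its age difference in cancer-free mice was 0.62 ± 0.30, with overlap.

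Of 12 fatty acid synthesis genes, Acly, which supplies cytosolic acetyl-CoA to both lipid routes, had the smallest p of the 66 for tumor in old mice. It was 6.61, 6.39 and 6.51 in old tumor-bearing mice, against 7.32, 7.34, 6.98, 6.93 and 6.98 in old cancer-free mice. The old tumor-bearing arrays lay below those of the other 3 groups, with 6.97 as the lowest young value. Its tumor difference was -0.61 ± 0.16 in old mice (limma adjusted p = 0.295) and -0.08 ± 0.18 in young mice, and the difference between these was -0.52 ± 0.25 (limma adjusted p = 0.976). Elovl6, a fatty acid elongase, differed by -1.10 ± 0.33 for age in cancer-free mice, with overlap (limma adjusted p = 0.525), and 3 of the 5 old cancer-free arrays, at 3.68 to 3.86, were below the floor.

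Among 8 other genes known as SREBP-2 targets, Rdh11, a retinol dehydrogenase, averaged 4.38 ± 0.13 in old and 5.15 ± 0.55 in young tumor-bearing mice, and 4.81 ± 0.31 in old and 5.38 ± 0.24 in young cancer-free mice (SD). Neither pair overlapped, beside 13.0% of all genes in tumor-bearing and 7.30% in cancer-free mice. In cancer-free mice the highest old value was 5.23 and the lowest young value 5.24. With tumor states pooled the ages overlapped, and the averaged age difference was -0.67 ± 0.18 (limma adjusted p = 0.148). Mmab, a cobalamin adenosyltransferase, was 3.36, 3.47 and 3.82 in old tumor-bearing mice, against 4.42, 4.47 and 4.42 in young tumor-bearing mice. Old cancer-free replicate 4, at 3.97, was the only old array above the floor. Young cancer-free mice had 3.29, 3.86 and 4.09, with 2 of 3 below it, so Mmab passed the filter mainly through young tumor-bearing mice and no difference is given for it.

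**Figure D4:**
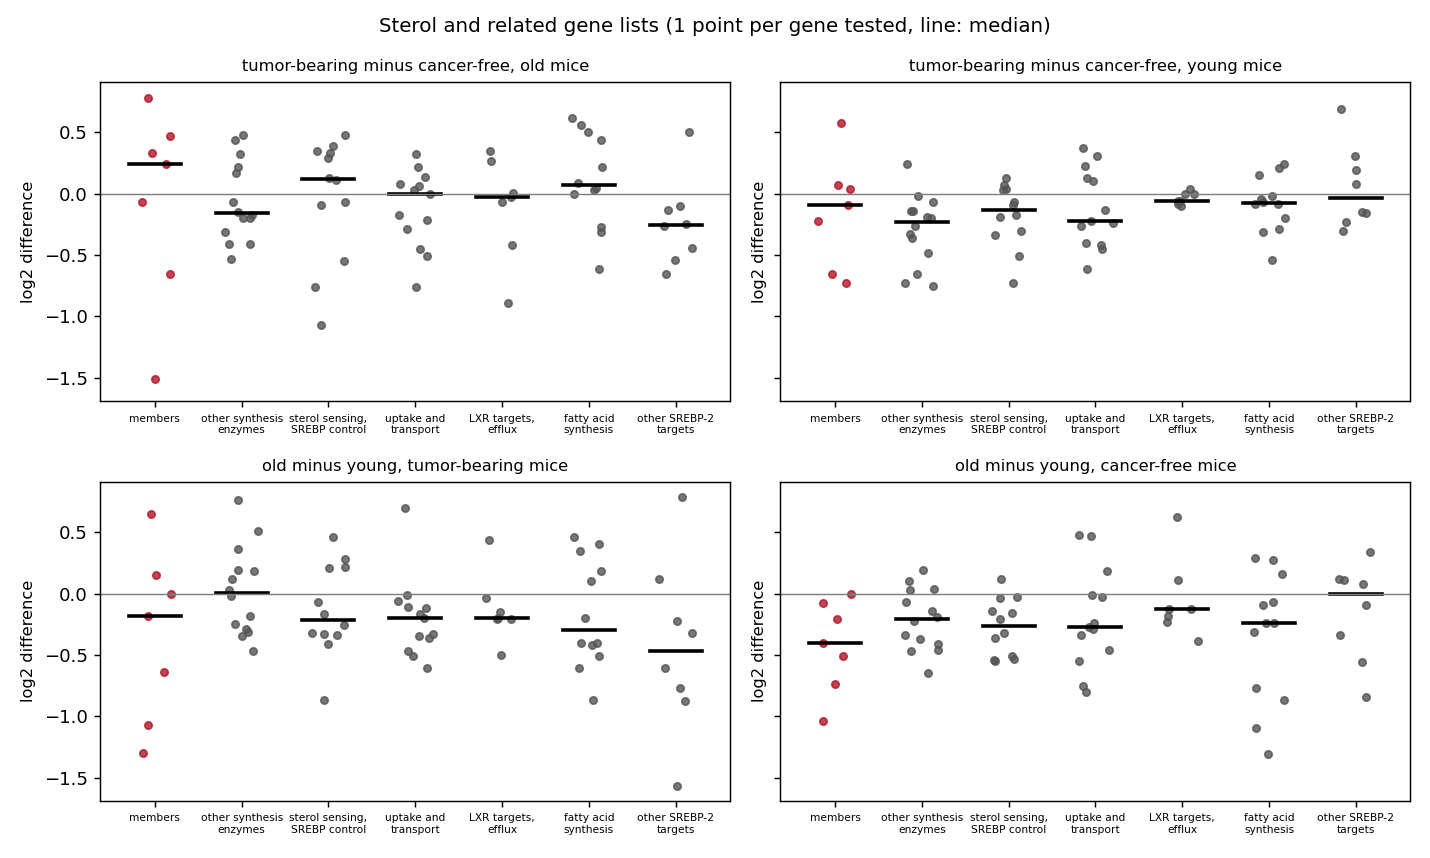
Limma log2 difference (vertical axis) of each tested gene in the members and in 6 related lists (horizontal axis), 1 panel per pairwise comparison, with list medians as lines. The other synthesis enzymes lie mostly below 0 for tumor in young mice, 13 of 14 genes, beside 52.8% of all genes tested. Hmgcs1 at -1.51 is the lowest point for tumor in old mice.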

How the data were processed

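Each of the 14 arrays held biotin-labelled material amplified from total RNA of 1 mouse, called a biological replicate in the labels. The authors' deposited log2 values came from RMA, and the submitters' processing notes name oligo 1.32.0 and R 3.2.0. Of 41345 probes, 23521 named 1 gene, 1814 several and 16010 none. The brightest probe on average stood for each of 22180 genes, and 13805 passed the floor of 3.88. With limma 3.58.1 (R 4.3.3), a mean per group was fitted over all arrays, and two-sided p-values of 7 comparisons were adjusted by Benjamini and Hochberg over all genes tested. The step was tested on simulated data. Precision is limited by how few arrays each group has.

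The members and lists were chosen with earlier results of these data known. Named pathway genes were a fixed set (among them Insig2, Scap, Srebf1, Cyp51, Abca1 and Abcg1, where tested; some items are not reported here) and the 3 with the smallest p per comparison. Genes alike were the 8 with the highest r. Replicate numbers did not pair samples: 18 same-numbered pairs had deviations correlating at -0.08 to 0.09. Alternatives were no filter or a stricter one, cyclic loess, median centring, a trended robust prior, array weights, averaged probes, fits of the compared groups alone, a replicate block, and omitting each array in turn.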

Additional observations from a re-analysis of the deposited data

Results flagged for a closer look

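Sqle in old cancer-free mice was 4.77 in replicate 2, while the other 4 arrays of the group lay between 3.82 and 4.04. The gap to the next array was 0.77 of the group's whole range, beyond the usual limit for a single far value among 5. Of 25 genes named in the report that were examined this way in that group, 1 stood out, and chance alone gives about 1 in 20.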

How the results depend on the processing

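Over 24 alternatives, no member and no other sterol gene passed an adjusted p of 0.05 in the 4 pairwise comparisons, nor over 23 in the other 3. Hmgcs1 for tumor in old mice stayed negative throughout, between -1.74 and -1.30, with adjusted p from 0.0932 to 0.372. With the replicate block, which pairs arrays by number although the numbers did not pair samples, the members' median for tumor in old mice was 0.23 and the smallest adjusted p among members was 0.371. The block changed no call of a member or of another sterol gene. Without 1 array each, the members' median for tumor in old mice ranged from -0.01 to 0.33 and for age in tumor-bearing mice from -0.39 to 0.05, so the sign of both turned. For age in cancer-free mice it stayed between -0.43 and -0.34. Over all genes, the 12 calls for age averaged over tumor states became 80 under median centring, 57 with array weights, 43 without the 2 arrays that correlated least, a setting chosen after seeing the data, and 0 under the block. Leaving out 1 array gave 0 to 74, the highest without old tumor-bearing replicate 3. For age in tumor-bearing mice, 0 calls became 9 under median centring, 6 under cyclic loess, 7 with averaged probes and 6 without those 2 arrays, and 2 without old cancer-free replicate 3 or old tumor-bearing replicate 3. For tumor in old mice, leaving out old tumor-bearing replicate 1 gave 4 calls in place of 0, while omitting old cancer-free replicate 3 gave 3 and omitting replicate 5 of that group gave 1. Groups of 3 to 5 arrays and low signal for Sqle and Lss limit what could be seen.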
